A study of Mus musculus with 401 samples.

Results

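The mitochondrial ribosomal protein genes were taken as every protein-coding gene listed in both count tables whose symbol starts with Mrpl or Mrps followed by a digit, pseudogenes excluded. This gave 78 genes, 49 named for the large subunit (Mrpl) and 29 for the small subunit (Mrps), of 19746 protein-coding genes present in both tables, and all 78 passed the filter on low counts in each comparison. RNA had been measured by RamDA-seq, a full-length total RNA method primed with random and oligo(dT) primers, in single germinal vesicle oocytes of fully grown follicles and in the pool of cumulus cells around each of them, from B6D2F1 (C57BL/6 x DBA/2) females. In the first set of libraries the mice were young (2 months), middle (9 months) or old (14 months) on an ad libitum diet, or middle (9 months) on calorie restriction (CR), a reduced daily ration begun in adulthood. In the second set they were 2, 4, 9 or 14 months old with hyperovulation, or 2 months old without it (2mo_noH). Each oocyte was 1 cell and several complexes came from the same animal, so counts were summed per mouse and cell type and the mouse label was the replicate. This gave 2 young, 4 middle, 2 old and 3 CR labels in the first set and 8 (2mo_noH), 5 (2mo), 8 (4mo), 4 (9mo) and 5 (14mo) in the second. One old label named 2 animals together. Per the study, the young, middle and old mice of the first set were hyperovulated too. Its general methods give the injection without excepting the CR mice. Hyperovulation was by injection of equine chorionic gonadotropin or HyperOva.

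The mitochondrial ribosome translates the handful of messages that remain in mitochondrial DNA, all of which encode subunits of the respiratory chain or ATP synthase. Its RNAs are made inside the organelle, whereas its proteins are encoded in the nucleus, made in the cytosol and imported, so each particle draws on both genomes. The large subunit holds the centre that joins amino acids and the exit tunnel, and the small subunit reads the message. Some of its proteins descend from those of the bacterial ribosome and others are found only in mitochondria. A fully grown mouse oocyte holds a very large number of mitochondria and is nearly silent in transcription, so its RNA is mostly a stored pool. Symbols do not always give the subunit: Mrps30 and Mrps18a encode proteins found in the large subunit, and Mrps36 encodes a protein of the 2-oxoglutarate dehydrogenase complex.

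At 2 months 55 of the 78 genes were called higher and 11 lower in oocytes than in cumulus cells, where 38.5% and 40.4% of all genes were. In oocytes of CR mice 11 were called lower and 1 higher than in oocytes of middle mice fed ad libitum, where 3.54% and 4.07% of all genes were. These CR calls were all lost when CR mouse 3 was left out or 1 removed complex was put back, and edgeR called no member for a difference of the CR effect between cell types (DESeq2 called 11). No gene of the family was called between ages, with hyperovulation, or in cumulus cells under CR.

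Promoters of 4 genes called in CR oocytes are shown first because the family is known for promoters that carry sites of nuclear respiratory factor 1 (NRF1), ETS factors and YY1. Each covers 250 bases before and 50 after the RefSeq transcription start (build GRCm38.p6), read 5′ to 3′ on the gene's strand, and capitals mark NRF1 core GCATGCG, ETS core CCGGAAG or YY1 core AAGATGG on either strand. GCATGCG and its reverse complement CGCATGC overlap in CGCATGCG, which matches on both strands. Mrpl32 lies on the minus strand at chr13:14612988-14613287, Mrps18b on the minus strand at chr17:35916391-35916690, Mrps12 on the minus strand at chr7:28741772-28742071 and Mrps18c on the plus strand at chr5:100798509-100798808.
Mrpl32: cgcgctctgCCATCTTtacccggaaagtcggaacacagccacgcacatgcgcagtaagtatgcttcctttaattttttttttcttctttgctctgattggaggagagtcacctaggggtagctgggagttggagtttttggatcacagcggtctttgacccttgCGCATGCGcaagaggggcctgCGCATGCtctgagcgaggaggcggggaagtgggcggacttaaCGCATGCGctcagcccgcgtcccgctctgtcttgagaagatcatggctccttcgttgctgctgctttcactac
Mrps18b: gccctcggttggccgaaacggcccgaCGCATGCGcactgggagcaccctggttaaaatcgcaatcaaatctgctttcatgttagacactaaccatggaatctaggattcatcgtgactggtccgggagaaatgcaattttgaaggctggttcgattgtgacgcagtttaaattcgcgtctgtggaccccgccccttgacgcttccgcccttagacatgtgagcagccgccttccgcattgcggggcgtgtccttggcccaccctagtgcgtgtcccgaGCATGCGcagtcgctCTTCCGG
Mrps12: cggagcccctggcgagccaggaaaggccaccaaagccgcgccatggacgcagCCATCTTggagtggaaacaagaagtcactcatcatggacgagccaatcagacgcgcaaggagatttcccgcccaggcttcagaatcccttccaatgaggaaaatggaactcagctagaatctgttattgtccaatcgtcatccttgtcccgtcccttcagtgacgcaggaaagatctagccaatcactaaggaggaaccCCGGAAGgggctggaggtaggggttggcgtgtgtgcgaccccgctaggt
Mrps18c: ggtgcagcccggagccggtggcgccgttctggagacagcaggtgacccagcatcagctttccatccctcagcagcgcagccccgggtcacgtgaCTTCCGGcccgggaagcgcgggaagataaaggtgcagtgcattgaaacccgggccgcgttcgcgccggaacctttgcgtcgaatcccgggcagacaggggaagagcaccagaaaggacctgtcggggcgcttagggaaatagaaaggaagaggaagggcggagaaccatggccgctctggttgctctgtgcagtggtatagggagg

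The NRF1 letters occurred in 8 of the 75 promoters listed for 69 of the 78 genes (10.7%) and in 3.58% of all 32851 promoters of the same length. The ETS letters occurred in 26 of the 75 (34.7%, against 8.86% of all), and the YY1 letters in 13 (17.3%, against 6.34%). At least 1 of the 3 was found in 38 of the 75 promoters (50.7%) and in 17.3% of all promoters. Mrpl24 and Mrpl14, which were also called in CR oocytes, had none of the 3 in the window. Many of these genes also shared a start region with a neighbour: 33 of the 78 (42.3%) had a protein-coding gene starting on the other strand within 1000 bases, as did 10.9% of all 21951 annotated protein-coding genes. Mrps12 faced Sars2, the mitochondrial seryl-tRNA synthetase, at 172 bases, and Mrpl46 and Mrps11, from different subunits, faced each other and overlapped. These matches describe the letters in the windows and not binding.

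In 2-month oocytes with hyperovulation, levels per gene length (RPKM, reads per kilobase of gene, scaled to library size) ranged widely over the family. Mrps36 was highest at 74.0 ± 3.11 RPKM (SD, n = 5 mice), with mice between 69.6 and 77.0. It was followed in its group by Mrps27, an RNA-binding protein of the small subunit, at 37.9 ± 2.94 RPKM. Among the large-subunit genes Mrpl14, whose protein lies at the contact between the subunits, stood at 58.6 ± 6.70 RPKM and Mrpl18 at 55.9 ± 4.83 RPKM. Those were neighbours whose ranges overlapped, at 51.8 to 68.1 and 50.1 to 62.8 RPKM. The lowest large-subunit genes in oocytes were Mrpl19 at 1.03 ± 0.113 and Mrpl23 at 0.903 ± 0.0955 RPKM, and the lowest small-subunit genes Mrps26 at 1.2 ± 0.220 and Mrps10 at 0.628 ± 0.0956 RPKM. The annotated lengths used for RPKM were 949 to 2093 bases for these 4 highest genes and 4358 to 8079 bases for the 4 lowest, and the part of length in the order was not tested.

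In 2-month cumulus cells the order was different at the top. Mrpl28 led the large subunit at 27.6 ± 3.34 RPKM (SD, n = 5 mice), followed by Mrpl12, the stalk protein that contacts translation factors, at 21.9 ± 1.66 RPKM, and their mice did not overlap (24.1 to 33.2 against 19.2 to 23.7 RPKM). Mrps28 led the small subunit at 20.1 ± 6.09 RPKM, with Mrps2 at 16.1 ± 2.25 RPKM, and their ranges overlapped. The lowest were Mrpl53 at 1.52 ± 0.579, Mrpl15 at 1.10 ± 0.284, Mrps31 at 1.82 ± 0.388 and Mrps35 at 1.21 ± 0.490 RPKM. Across the 78 genes, log2 levels in oocytes and cumulus cells of the same 5 mice had a Pearson correlation of 0.69 and a Spearman correlation of 0.68, both of which share gene length and sequence and are given as a description. The median gene stood at 7.43 RPKM (large) and 7.97 RPKM (small) in oocytes and at 7.17 RPKM (large) and 5.06 RPKM (small) in cumulus cells.

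The comparison of cell types at 2 months asked which members differed between an oocyte and its cumulus cells in the same mice. It used edgeR's quasi-likelihood test on counts summed per mouse, with the mouse as a block, TMM scaling (trimmed mean of M-values, which sets libraries to a common middle of their genes) and a Benjamini-Hochberg adjusted p under 5% over all genes. Of all 28485 genes tested 78.9% were called, 38.5% higher and 40.4% lower in oocytes. Of the 78 members 84.6% were called, 70.5% higher and 14.1% lower, so the family differed from the background in direction far more than in how often it was called. The split was 31 higher and 8 lower in the large subunit and 24 higher and 3 lower in the small subunit. The median log2 fold change was 0.61 (large) and 1.06 (small), where the median of all genes was -0.07. With plain library totals in place of TMM, 39 members were called higher and 17 lower (32.7% and 46.2% of all genes, 78.9% in all), the median of the family fell to 0.38 and that of all genes to -0.55, so the distance between them was 0.94 with TMM and 0.93 without.

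Among members with at least 8 CPM (counts scaled to library size), the 6 largest rises were those of Mrpl34, Mrps36, Mrpl35, Mrps33, Mrpl14 and Mrpl55. Mrpl34, a small protein of bacterial descent in the large subunit, was at 29.9 to 42.3 RPKM in the 5 oocyte sums and at 3.46 to 7.08 RPKM in the 5 cumulus sums. Its log2 fold change was 3.22 ± 0.20 (SE, adjusted p = 9.34e-13). Mrps36 was at 69.6 to 77.0 RPKM in oocytes and 8.88 to 13.9 RPKM in cumulus cells, a log2 fold change of 3.18 ± 0.14 (adjusted p = 1.84e-15). Neither gene's groups overlapped. In the second set 87.5% of the nonzero counts of Mrps36 were not whole numbers, which shows reads shared with other loci, and those of Mrpl34 were all whole. Mrpl35 was at 18.0 to 19.7 RPKM in oocytes against 3.0 to 4.15 RPKM (log2 2.91), and Mrps33, found only in mitochondria, at 19.1 to 22.2 against 2.86 to 7.84 RPKM (log2 2.72). Mrpl14 (51.8 to 68.1 against 10.5 to 16.2 RPKM) and Mrpl55 (38.9 to 45.4 against 9.27 to 10.2 RPKM) had log2 fold changes of 2.64 and 2.62.

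The falls were smaller and were led by Mrps10, a small-subunit protein of bacterial descent. It was at 0.503 to 0.768 RPKM in oocytes and 2.05 to 3.70 RPKM in cumulus cells, a log2 fold change of -1.79 ± 0.18 (adjusted p = 3.69e-09). Mrpl49 was at 4.12 to 6.16 RPKM in oocytes against 15.2 to 20.4 RPKM in cumulus cells (log2 -1.31 ± 0.15, adjusted p = 5.61e-08). Mrps9 (log2 -1.05), Mrps6 (log2 -0.92), Mrpl27 (log2 -0.82) and Mrpl43 (log2 -0.75) were the next, and in all 6 genes every oocyte sum lay below every cumulus sum. Mrps6 overlaps Slc5a3 in the annotation, so reads of the 2 genes may be shared.

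Members singled out for their roles were also called higher in oocytes. Mrpl58, a peptidyl-tRNA hydrolase built into the large subunit that frees stalled chains, was at 5.38 to 8.69 RPKM in oocytes and 1.26 to 3.34 RPKM in cumulus cells (log2 2.25 ± 0.20, adjusted p = 6.14e-10). Mrps18a (log2 1.10), Mrps12, at the decoding centre (log2 0.97), Mrpl12 (log2 0.73) and Mrps5, which acts in the accuracy of decoding (log2 0.71), were also called higher, although their plain RPKM ranges overlapped between the cell types and the calls of Mrpl12 and Mrps5 did not hold with plain library totals (log2 0.25 and 0.22), nor that of Mrpl12 with a correction for gene length (log2 0.03). Mrps30 was called higher with TMM (log2 0.42 ± 0.14, adjusted p = 0.0104) and its value was -0.07 with plain library totals. On the plain RPKM scale, 33 members had every 2-month oocyte sum above every cumulus sum (30.7% of all genes did), 13 had every one below (37.1% of all genes), and 32 overlapped.

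**Figure D1:**
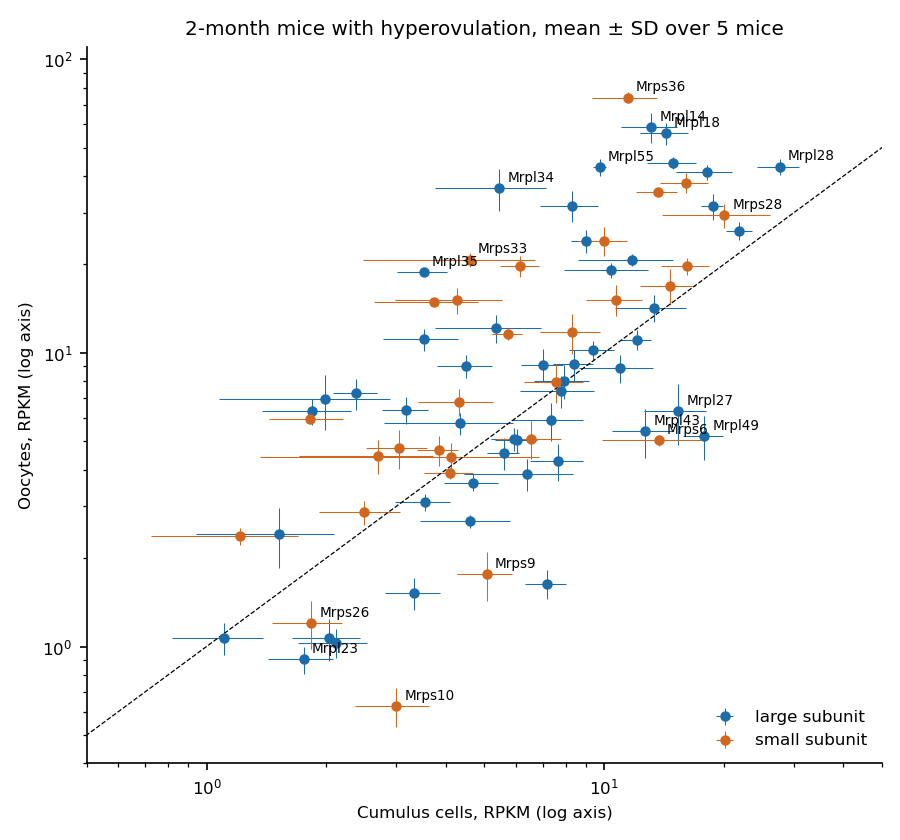
Mean level of each of the 78 genes in cumulus cells (x axis) and oocytes (y axis) of 2-month mice with hyperovulation, in RPKM on log axes, with SD over 5 mice as bars and the line of equal level dashed. Mrps36 (74.0 against 11.5 RPKM) and Mrpl34 (36.3 against 5.45 RPKM) lie far above the line, and Mrps10 (0.628 against 3.0 RPKM) far below it.

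The other groups, which had no part in that test, were compared within each mouse on the plain RPKM scale, and the first set was less uniform than the second. The calls were made with TMM scaling, so part of the mixed results goes with the change of scale. On the plain scale 44 of the 55 members called higher were higher in all 5 tested mice themselves, and 11 were mixed. Of these 55, 33 were higher in oocytes than in the cumulus cells of the same mouse in all 25 other mice of the second set, and 22 were mixed. In the first set 20 of the 55 were higher in all 11 mouse labels, 5 were lower in all and 30 were mixed. Of the 11 called lower, 10 were lower in all 25 mice and 11 in all 11 mouse labels. These counts were not made over all genes, so they describe the members only.

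Other genes of mitochondrial translation did not all share this direction. Of 5 mitochondrial ribosomal proteins without an Mrp symbol 3 were called higher and 1 lower in oocytes, and of 12 translation and rescue factors 8 were higher and 3 lower. Of 17 mitochondrial aminoacyl-tRNA synthetases, which charge the tRNAs, 4 were higher and 9 lower, with a median log2 fold change of -0.38. Of 17 factors of ribosome assembly and rRNA modification 8 were higher and 5 lower. The cell labels fitted their markers: 10 of 10 oocyte markers were higher and 8 of 8 cumulus or granulosa markers lower in oocytes, and in the second set the cumulus markers summed to 19.9 to 72.5 CPM in oocytes and 2709 to 8766 CPM in cumulus cells. Mitochondrially encoded RNA took 0.439 to 0.682% of second-set oocyte counts and 6.6 to 14.5% of cumulus counts.

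The balance of the subunits in each cell type is given as a description of sums over the members. The summed RPKM of the large-subunit genes was 1.65 to 1.83 times that of the small-subunit genes in the 30 oocyte sums of the second set and 1.66 to 2.09 times in the 30 cumulus sums, which overlapped. In the first set it was 1.62 to 1.79 times in oocytes and 1.81 to 1.99 times in cumulus cells, which did not overlap. The small-subunit sums include Mrps36, not a ribosomal protein, which at 2 months was at 74.0 RPKM in oocytes and 11.5 RPKM in cumulus cells. Without Mrps36 the ratio of the mean sums at 2 months was not lower in oocytes, so the order of the cell types depended on this gene there. In the first set the ranges of the 2 cell types overlapped without Mrps36, so their separation rested on this gene too.

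CR was compared with the middle group fed ad libitum, both at 9 months, to ask how diet related to the transcripts of this family. In oocytes 7 large-subunit genes and 4 small-subunit genes were called lower and 1 small-subunit gene higher. This is 14.1% of the family lower, where 3.54% of all 27072 genes tested were lower, and 1.28% higher, where 4.07% were higher (7.62% called in all). The median log2 fold change of the family was -0.32, with -0.36 in the large and -0.27 in the small subunit, where the median of all genes was -0.01. Values were below 0 for 61 of the 78 genes, 38 of 49 large and 23 of 29 small, and 32 members (41%) had an unadjusted p under 0.05, against 22.9% of all genes.

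Summed over the family, CR oocytes held less in the large subunit than any other first-set mouse label. The large-subunit sums were 964, 952 and 1018 CPM after TMM scaling in the 3 CR mice and 1060, 1274, 1503 and 1079 CPM in the 4 middle mice. The young sums were 1036 and 1341 CPM and the old sums 1309 and 1260 CPM. The small-subunit sums were 673, 692 and 732 CPM in CR and 735, 886, 1007 and 736 CPM in middle oocytes. The groups did not overlap, but 1 young label (705 CPM) lay within the CR range. These sums include Mrps36, not a ribosomal protein, at 63.9, 57.9 and 63.0 CPM in CR and 77.8, 95.8, 143 and 74.8 CPM in middle oocytes. Without Mrps36 the highest CR sum lies above the lowest middle sum, so the separation rested on this gene. The CR means differed from the middle means by -20.4% for the large and -16.9% for the small subunit. The highest middle sums, 1503 and 1007 CPM, came from the mouse with a single oocyte library and weigh as much as the others in these means. The median RPKM over the members in place of the sum gave -27.1% for the large subunit and turned to 2.18% for the small one. In cumulus cells of the same mice the order of the large-subunit sums was the opposite, at 1182, 1090 and 1093 CPM in CR and 995, 1070, 1015 and 1086 CPM in middle mice. With plain library totals these large-subunit sums overlapped, at 1080 to 1191 CPM in CR and 960 to 1122 CPM in middle mice. The small-subunit cumulus sums overlapped after TMM scaling, at 650 to 725 CPM in CR and 573 to 675 CPM in middle mice.

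**Figure D2:**
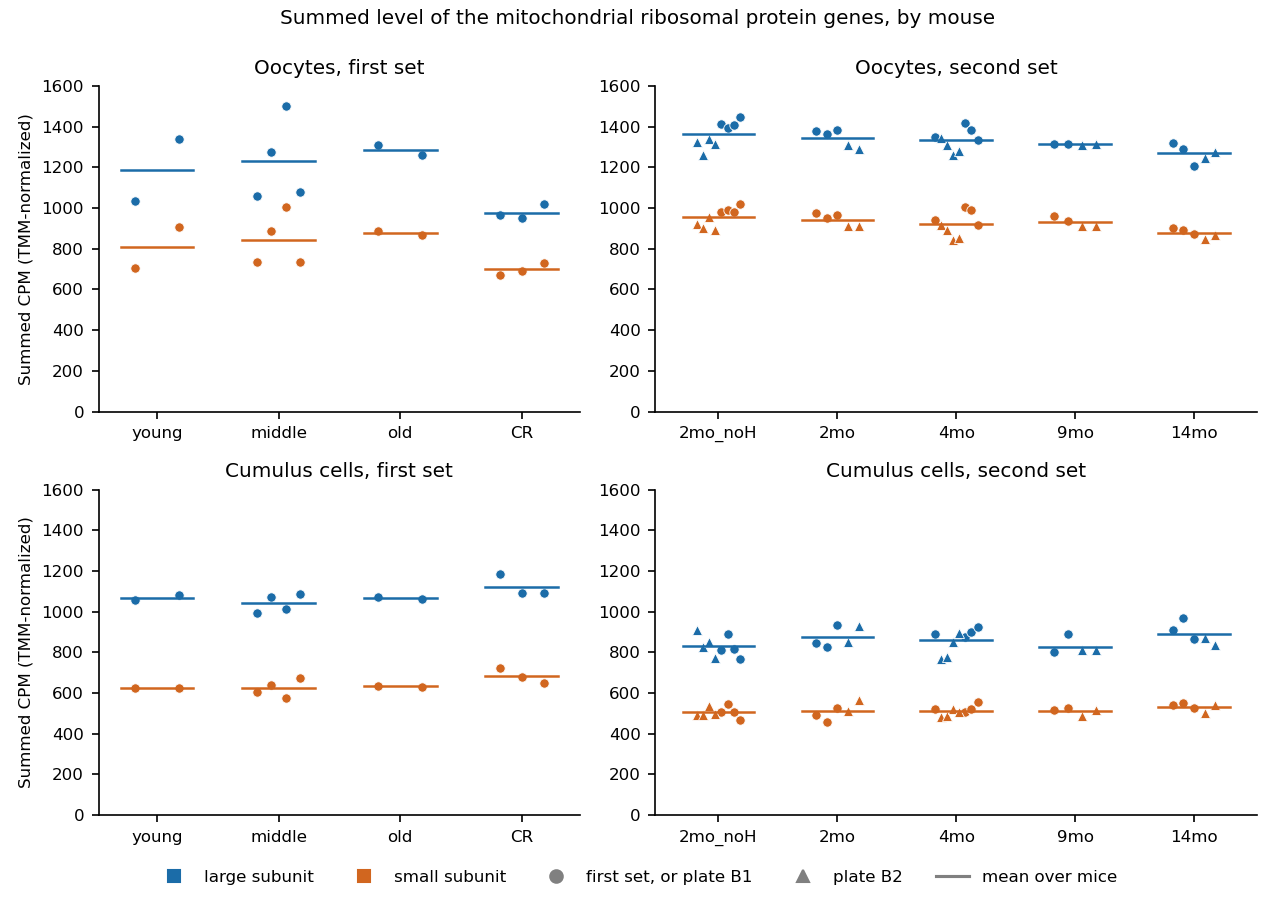
Summed CPM after TMM scaling of the 49 large-subunit (blue) and 29 small-subunit (orange) genes for each mouse label in oocytes (top) and cumulus cells (bottom), first set at left and second set at right, with group means as lines, circles for the first set and plate B1 and triangles for plate B2. CR oocytes have large-subunit sums between 952 and 1018 CPM, below the other 8 first-set labels, and CR cumulus cells lie between 1090 and 1182 CPM. Plates were read from the prefix of the sample titles.

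The clearest single gene was Mrps12, the counterpart of the bacterial S12 protein at the decoding centre (GRCm38 chromosome 7, 28739641 to 28741820). It was at 4.93, 7.25 and 6.28 CPM in the 3 CR oocyte sums and at 13.1, 12.4, 12.5 and 11.8 CPM in the 4 middle sums. Every CR mouse was well below every middle mouse, and also below the young (12.1 and 12.2 CPM) and the old mice (13.2 and 10.6 CPM). Its log2 fold change was -1.03 ± 0.18 (adjusted p = 0.00964). In cumulus cells the same mice had 22.6, 17.5 and 15.1 CPM (CR) and 13, 14.2, 9.45 and 14.6 CPM (middle), a log2 value of 0.46 that was not called (adjusted p = 0.646).

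Mrpl38, a large-subunit protein found only in mitochondria, was at 10.9, 12.3 and 13.2 CPM in CR and 19, 22.4, 19 and 23.2 CPM in middle oocytes (log2 -0.83 ± 0.15, adjusted p = 0.0101). Mrps18b, 1 of the 3 relatives of bacterial S18, was at 14.9, 15.5 and 17.1 CPM against 22.1, 27.9, 34.4 and 26.4 CPM (log2 -0.82 ± 0.16, adjusted p = 0.0134). All CR mice lay below all middle mice in both genes. Counts of Mrps12 and Mrpl38 were whole in every first-set library, while 67.1% of the nonzero first-set counts of Mrps18b were not, so part of its reads was shared with other loci.

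Mrpl32, known as a substrate of the mitochondrial AAA protease, was at 25.5, 24.5 and 26.3 CPM in CR and 38.1, 42.6, 43.2 and 31.6 CPM in middle oocytes (log2 -0.64 ± 0.14, adjusted p = 0.0188). Mrpl24 was the most abundant of the called genes on the CPM scale at 62.2, 52.7 and 56.5 CPM against 77.5, 94.1, 95.2 and 72.5 CPM (log2 -0.60 ± 0.13, adjusted p = 0.0193). Mrpl34, high in oocytes at 2 months, was at 15.2, 10.9 and 12.7 CPM against 19.2, 24.7, 32.1 and 18.8 CPM (log2 -0.89 ± 0.20, adjusted p = 0.0257). None of the 3 genes had an overlap between the CR and middle mice. Of their nonzero first-set counts 35.6% (Mrpl32), 58.9% (Mrpl24) and 0.685% (Mrpl34) were not whole.

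Mrpl14 was at 21.5, 23.5 and 25 CPM in CR and at 32.5, 47.7, 74.3 and 35.8 CPM in middle oocytes (log2 -1.02 ± 0.24, adjusted p = 0.0287), where the highest middle value came from the mouse with a single oocyte library. Mrpl58 was at 9.68, 9.21 and 9.34 CPM against 12.4, 19.5, 22.8 and 14.0 CPM (log2 -0.87 ± 0.21, adjusted p = 0.0290). The remaining falls were those of Mrps28, the counterpart of bacterial S1 (log2 -0.68, adjusted p = 0.0439), and Mrps16 (log2 -0.64, adjusted p = 0.0458). Mrpl54, chosen after its values were seen because its mean is under 8 CPM, was at 2.14, 3.65 and 3.53 CPM against 6.21, 6.26, 10.7 and 6.20 CPM (log2 -1.16 ± 0.27, adjusted p = 0.0271). Nonzero first-set counts were not whole in 33.6% (Mrpl14), 38.4% (Mrpl58) and 46.6% (Mrps16). Of all members called here, 5 had under 1% of such counts.

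Against this direction, Mrps18c, another relative of bacterial S18, was the 1 gene called higher, and with a mean under 8 CPM over the mice compared it too was chosen after its values were seen. It was at 11.1, 9.77 and 9.93 CPM in CR and at 3.31, 5.07, 8.36 and 4.38 CPM in middle oocytes (log2 1.03 ± 0.25, adjusted p = 0.0308), with 62.3% of its nonzero first-set counts not whole. The third relative, Mrps18a, had a log2 value of -0.40 (adjusted p = 0.271). Across the 78 genes, every CR mouse lay below every middle mouse in 25 genes and above in 3, where 8.45% of all genes lay below and 13.6% above. Every CR mouse lay below every young, middle and old mouse in 20 members and above in 3 (Mrpl13, Mrps18c and Mrps23), where 4.9% and 9.34% of all genes did. The members of most interest for their roles that missed the threshold were Mrps36 (log2 -0.68, adjusted p = 0.0601), Mrpl12 (log2 -0.40, adjusted p = 0.141), Mrps5 (log2 -0.35, adjusted p = 0.245) and Mrps30 (log2 -0.27, adjusted p = 0.315).

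**Figure D3:**
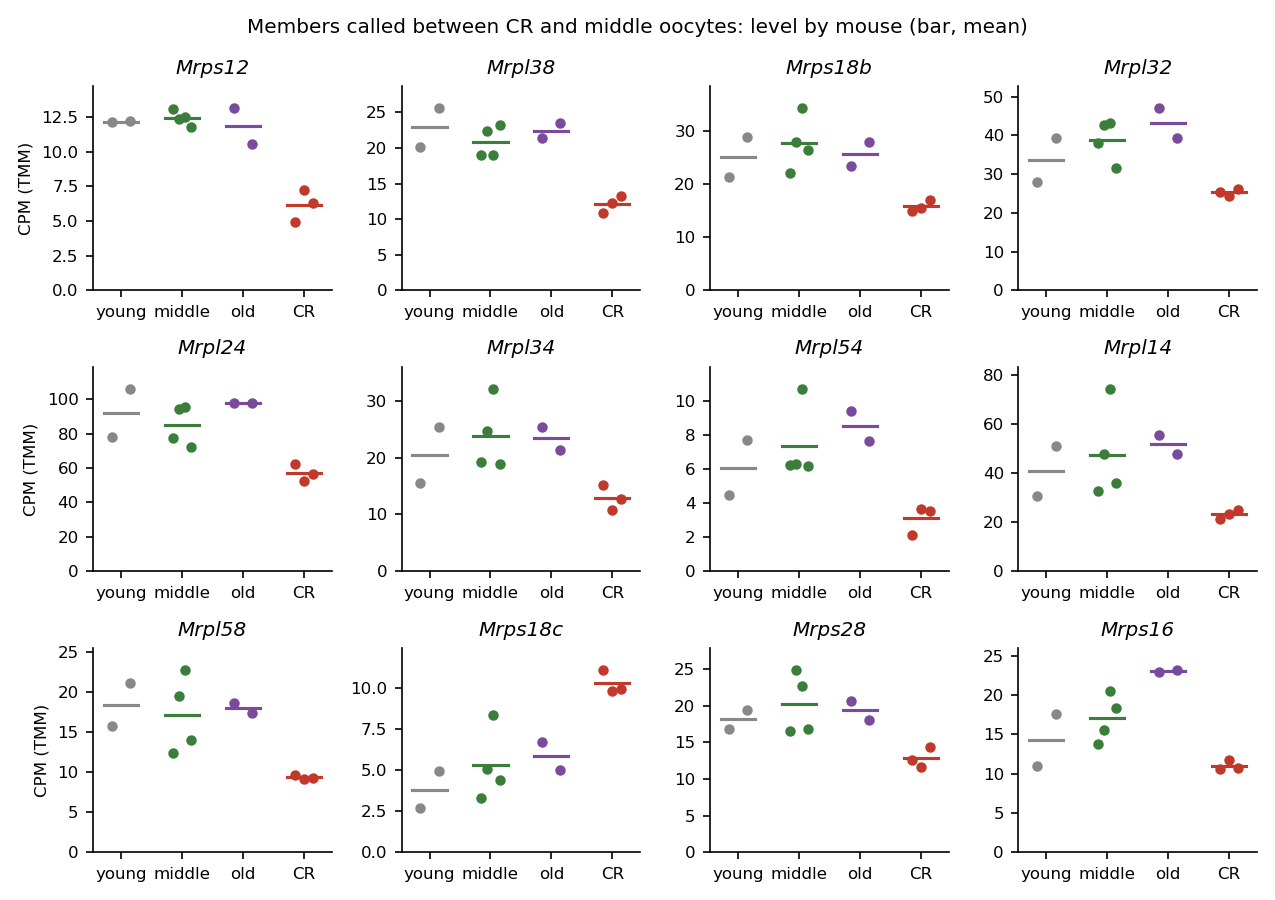
CPM after TMM scaling in first-set oocytes for the 12 members called between CR and middle, a point for each mouse label and a bar for each group mean. All 3 CR points lie below all middle points in 11 genes and above them in Mrps18c (9.77 to 11.1 against 3.31 to 8.36 CPM).

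**Figure D4:**
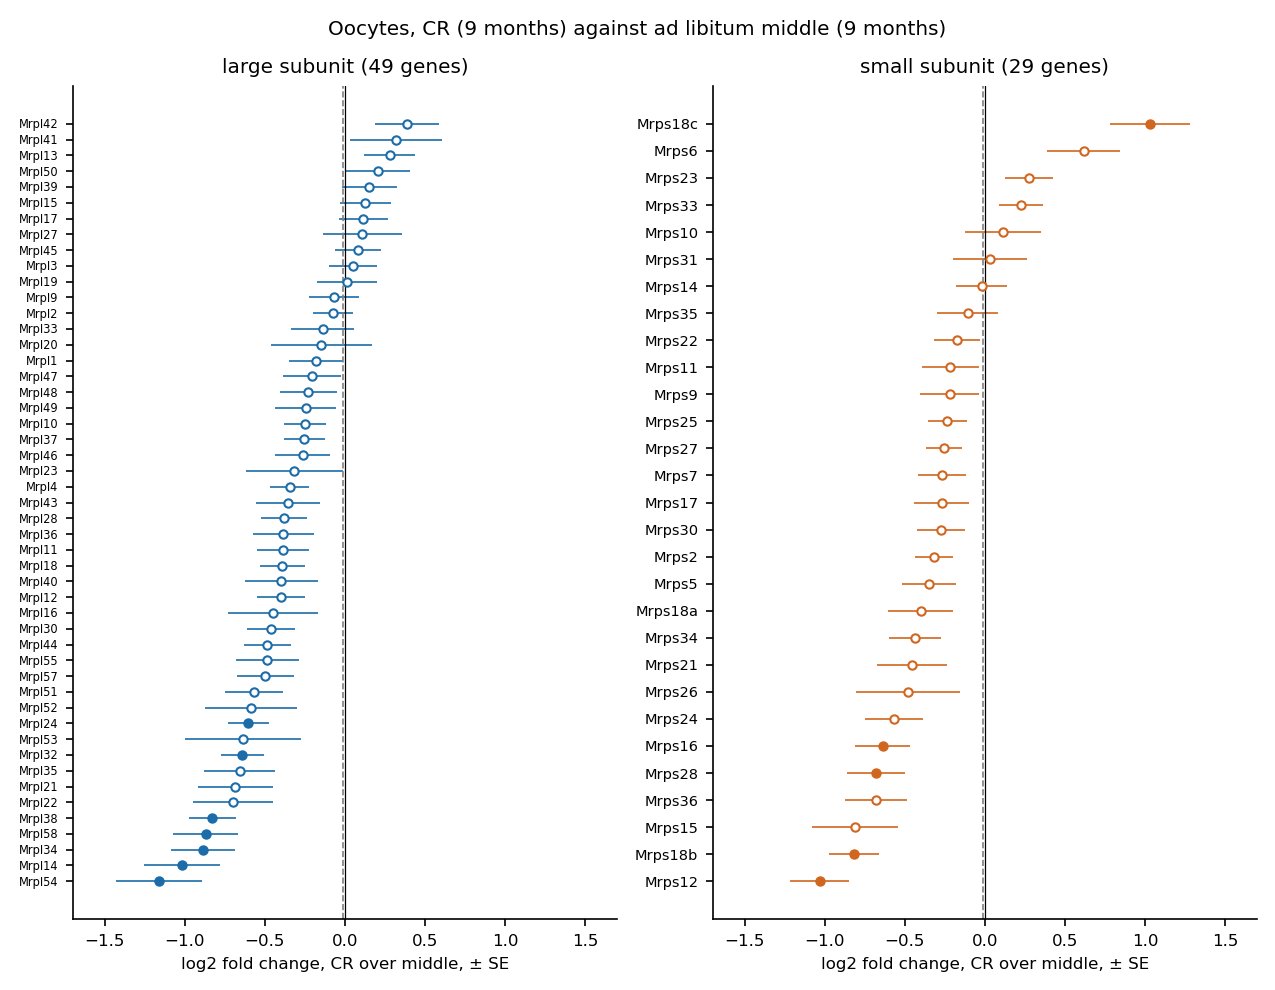
Log2 fold change of CR over middle oocytes with its SE for each of the 49 large-subunit genes (left) and 29 small-subunit genes (right), filled where the adjusted p is under 5%, with the median of all genes dashed. Points below 0 number 38 of 49 and 23 of 29, from Mrpl54 at -1.16 to Mrps18c at 1.03.

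The calls rested on few mice. No member was called without CR mouse 3 (2.68% of all genes were), 1 without CR mouse 2 (2.71%), 4 without CR mouse 1 (2.93%) and 2 without middle mouse 2 (3.05%), so calls over all genes fell as well, while the family's median stayed between -0.33 and -0.22 in all fits that left out a mouse. When the 1 complex that the authors had removed from the middle group was put back, no member and only 4 of all 27208 genes (0.0147%) were called, with a family median of -0.30. With single libraries as units, as the study tested them, 40 members were lower and 6 higher (13.5% and 14.7% of all genes, 28.2% in all), but these cells share mice. DESeq2 on the sums per mouse called 20 lower and 1 higher (6.09% and 6.75% of all genes, 12.8% in all). In the same oocytes mitochondrially encoded RNA took 0.977 to 1.73% of counts in CR and 0.717 to 0.849% in middle mice, without overlap, and depth per oocyte library was 2752043 to 4536690 counts in CR and 1903858 to 2624876 in middle; their part in the result was not tested. Cumulus markers summed to 117 to 274 CPM in CR and 47.4 to 387 CPM in middle oocytes, which overlapped, none of the 8 markers was at 0 in every mouse, and 1 of the 8 was called higher in CR.

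Of 31 facing genes outside the family 2 were called higher and 1 lower in CR oocytes, with a median log2 value of -0.10, and 6 of the 12 called members had such a neighbour. The neighbours of these 6 had values of the same sign as the member, none of them called. Sars2, facing Mrps12, had a log2 value of -0.30 ± 0.16 (adjusted p = 0.289), and Apba3, facing Mrpl54, one of -1.07 ± 0.30 (adjusted p = 0.0564). Tmem63b (-0.31, facing Mrpl14), Ppp1r10 (-0.26, facing Mrps18b) and Psma2 (-0.06, facing Mrpl32) were below 0, and Helq, facing Mrps18c, was at 0.30. These neighbours are named after their values were seen.

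Among the other genes of mitochondrial translation in CR oocytes, 2 of the 5 ribosomal proteins without an Mrp symbol were called lower. Aurkaip1 of the small subunit was at 21.6, 23.8 and 26.6 CPM in CR and 36.5, 41.1, 55.7 and 35.2 CPM in middle oocytes (log2 -0.82 ± 0.16, adjusted p = 0.0159), and Gadd45gip1 of the large subunit had a log2 fold change of -0.83 ± 0.17 (adjusted p = 0.0162). Of the 12 factors Tsfm, an elongation factor, fell (log2 -0.72) and Guf1, a translational GTPase, rose (log2 0.58). Nsun4, an rRNA methyltransferase, was the 1 of 17 assembly genes called (log2 -0.34), and none of the 17 synthetases was called by edgeR, with 3 at an unadjusted p under 0.05.

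In cumulus cells CR did not give a called member, nor any called gene of 26487 (0%). In all, 2 members had an unadjusted p under 0.05 by edgeR and DESeq2 called none. The median log2 value was 0.11 for the family and 0.03 for all genes, with 54 of 78 members above 0. Mrpl34 had the largest value, with 10.0, 6.51 and 6.19 CPM in CR and 3.25, 4.84, 2.58 and 5.02 CPM in middle cumulus cells, groups that did not overlap (log2 0.84 ± 0.31, adjusted p = 0.533). It was the 1 member called with libraries as units (2.06% of all genes were higher, 3.45% called in all).

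Whether the CR effect differed between the cell types was tested by an interaction term with the mouse as a block. No member was called (0.264% of 32564 genes were), 3 had an unadjusted p under 0.05, DESeq2 called 11 lower (1.43% of all genes, 2.86% called in all), and the fit of libraries called 33 lower and 3 higher (7.59% and 3.99% of all genes, 11.6% in all). The lowest adjusted p was that of Mrpl34, whose log2 difference between oocytes and cumulus cells was -1.41 ± 0.45 (adjusted p = 0.217), followed by Mrps12 at -1.22 ± 0.45 (adjusted p = 0.324). The median of all genes was 0.19 with TMM and -0.07 with DESeq2 size factors, and the family's median minus that of all genes was -0.29 and -0.32.

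Age in the first set did not give a called member in either cell type. In oocytes no gene at all was called for middle against young (0% of 24731) or old against young (0% of 24849), and members with an unadjusted p under 0.05 by edgeR numbered 0 and 4, while DESeq2 called none. With libraries as units 2 members were higher and 1 lower in old oocytes (3.65% and 3% of all genes, 6.65% in all), and without the old label Old3 the sums per mouse gave 5 higher and 2 lower, with 18.7% of all genes called. That fit has a single old label, Old1_2, which is assumed to vary like the young labels. Old oocytes had a family median of 0.18 above young, with 56 of 78 values above 0, where all genes had 0.06. The young labels themselves differed, with 1036 and 1341 CPM for the large subunit, a gap wider than that between the group means. One old label had mitochondrially encoded RNA at 1.65% and cumulus markers at 475 CPM, the highest of the first-set oocytes for these markers; their part was not tested. In cumulus cells medians were 0.00 (middle) and 0.03 (old) against young, with 0 and 3 members at an unadjusted p under 0.05 and 0% and 0.431% of all genes called.

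In the second set, family medians in oocytes relative to 2 months were -0.02 at 4 months, -0.03 at 9 months and -0.10 at 14 months, with no member called at any age by edgeR or DESeq2. The shares of all genes called were 0%, 0.0784% and 0.177%, and members with an unadjusted p under 0.05 numbered 1, 1 and 10. At 14 months 70 of the 78 values were below 0 (43 of 49 and 27 of 29), but they were small. No share of all genes below 0 or at an unadjusted p under 0.05 stands beside these counts, which describe the members only. Mrps12 was at 11.7, 8.64, 7.43, 9.26 and 9.44 CPM in the 5 mice of 14 months and at 11.9, 15.1, 12.3, 9.76 and 12 CPM in the 5 mice of 2 months (log2 -0.36 ± 0.13, adjusted p = 0.350), groups that overlapped. Mrps11 had the lowest adjusted p (log2 -0.41 ± 0.12, adjusted p = 0.189) and was named for that after the fact.

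Titles in the second set begin with B1 or B2, which were read here as 2 plates although no label calls them that. The sums are given within each. Large-subunit sums in oocytes at 2 months were 1362 to 1385 CPM on plate B1 and 1291 to 1311 CPM on plate B2, and at 14 months 1207 to 1321 and 1244 to 1277 CPM. The 2 ages thus overlapped when pooled and did not overlap within either plate, with means that differed by -5.75% (large) and -7.10% (small). With plate as a covariate the family's median was -0.09 and no member was called. The 14-month difference in this set and the old against young difference in the first set, both 14 against 2 months, had opposite signs, and their difference was not tested.

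Cumulus cells of the second set had family medians of -0.01 at 4, -0.10 at 9 and 0.06 at 14 months relative to 2 months, where all genes lay between -0.01 and 0.01. No member was called by edgeR or DESeq2, and 3, 4 and 3 members had an unadjusted p under 0.05 (0%, 0.0081% and 0.159% of all genes were called). Mrpl12 was at 29.1 to 36.3 CPM at 2 months, 21 to 39.1 at 4, 25.8 to 37.1 at 9 and 27.6 to 41.4 CPM at 14 months, ranges that overlapped throughout.

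Hyperovulation was compared at 2 months (2mo against 2mo_noH). In oocytes the family's median was -0.02, 2 members had an unadjusted p under 0.05, and no member nor any other of 25088 genes was called (0%). Mrps36 was at 80.1 to 102 CPM without and 88.9 to 98.2 CPM with hyperovulation, and Mrpl12 at 35.4 to 43.0 and 35.4 to 42.1 CPM. In cumulus cells 0.863% of genes were called but no member, with a median of 0.07 and 2 members at an unadjusted p under 0.05. Those were Mrpl51 (log2 0.45 ± 0.16, adjusted p = 0.205) and Mrpl18 (log2 0.38 ± 0.17, adjusted p = 0.336), which were the 2 called with libraries as units (5.75% of all genes were higher, 12.1% called in all). DESeq2 called none in either cell type. The interaction of hyperovulation and cell type gave no called member (0.245% of 31845 genes were called), with 2 at an unadjusted p under 0.05, none by DESeq2 and 1 lower in the fit of libraries (2.25% of all genes, 4.37% called in all).

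**Figure D5:**
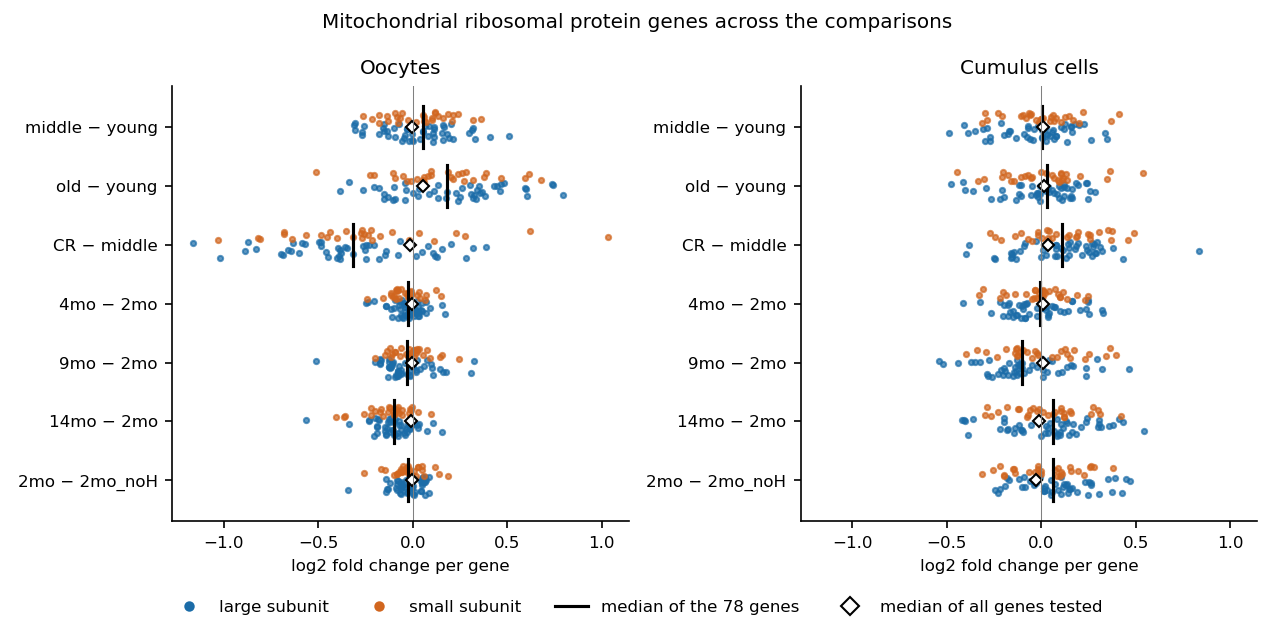
Log2 fold change of each of the 78 genes in 7 comparisons in oocytes (left) and cumulus cells (right), large-subunit genes in blue and small-subunit genes in orange, with the family's median as a bar and the median of all genes tested as a diamond. The bar stands furthest from the diamond for CR against middle in oocytes, at -0.32 against -0.01.

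Depth per library was 559305 to 4536690 counts in oocytes and 510029 to 2501005 in cumulus pools, and summed per mouse 2027083 to 48363571 in first-set oocytes, with the lowest from a single library. In cumulus pools, fewer cells and less RNA per cell cannot be told apart.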

How the data were processed

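RNA of single oocytes and of their cumulus cells was sequenced in 146 libraries of the first and 255 of the second set. Per the labels and the study's methods, the authors aligned reads to GRCm38 with HISAT2 2.0.5 and counted them per GENCODE gene with featureCounts 1.5.1. The deposited values are expected counts, since 36.8% (first set) and 35.1% (second set) of nonzero values were not whole, and reads that match several loci may be split between genes. The deposited RPKM tables of the authors served only for gene lengths.

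The members and gene lists were chosen with earlier results of these data known. Libraries were summed per mouse and cell type, leaving out the complex the authors had removed, and the sums were rounded. Genes detected in 5 or more of a comparison's libraries were tested in R 4.3.3 with edgeR 4.0.16 (quasi-likelihood test, TMM, limma 3.58.1) at an adjusted p under 5%, adjusted by Benjamini-Hochberg over all genes tested. Each test had its own TMM scaling over the groups compared. CPM values are from a separate TMM scaling over all groups of a set and cell type. RPKM values and the marker sums use plain library totals. Oocytes and cumulus cells came from the same mice, so comparisons between them had the mouse as a block, while groups held different mice. Named genes were the called members with the largest rises and falls at 8 CPM or more (up to 6 each way, 10 for CR in oocytes), the 2 highest and 2 lowest of each subunit at 2 months, and Mrps30, Mrps18a, Mrps36, Mrpl12, Mrps12, Mrps5 and Mrpl58. Alternatives were libraries as units, DESeq2 1.42.0, its size factors, other filters, a length correction, plate as a covariate, the removed complex, no block, leaving out each mouse and, chosen after seeing the data, plain library totals. The fit was tested on simulated data with 200 changed genes. These were drawn from genes with a mean above 5 CPM and moved up or down by a single log2 unit. Smaller changes were not simulated. The fit recovered 162 with 32 false calls for CR against middle oocytes, and 106 with 23 for old against young oocytes. For 14 against 2 months in oocytes it recovered 197 with 15 false calls, and for hyperovulation in cumulus cells 136 with 8. False calls thus exceeded 5% of the calls in each, so the 5% threshold was not fully held. The p-values measure the spread between mouse labels, at the depths per library given above.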

Additional observations from a re-analysis of the deposited data

Results flagged for a closer look

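Among 77 groups of 4 to 10 mice checked for a value far from the rest, 2 were marked, where chance marks about 1 in 20. The large-subunit sum in 9-month cumulus cells was 889 CPM in the mouse labelled 9mo22, and 801 to 811 CPM in the other 3 mice. Mrpl54 in middle oocytes was at 10.7 CPM in the mouse labelled Middle3, which had a single oocyte library, and at 6.20 to 6.26 CPM in the other 3 mice.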

How the results depend on the processing

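Calls of members in CR against middle oocytes depended on the units and the mice: 46 were called with libraries as units, 21 with DESeq2, 0 with the removed complex included, and 0 to 13 when a mouse was left out, with 0 without CR mouse 3, 1 without CR mouse 2, 2 without middle mouse 2 and 4 without CR mouse 1. For old against young oocytes 3 were called with libraries as units and 0 to 7 when a mouse was left out, 7 without the old label Old3. Libraries as units called 1 member for CR in cumulus cells, 2 for hyperovulation in cumulus cells, 36 for the difference of the CR effect between cell types (DESeq2 called 11) and 1 for that of the hyperovulation effect. The causes were not tested. Between cell types at 2 months, without the replicate block 65 members were called (54 higher and 11 lower) and the interactions stayed at 0, and Mrps30 turned to -0.070 (adjusted p = 0.625) with plain library totals. No pairing applied between groups, which held different mice. Over the named genes, 181 values for CR in oocytes kept their direction and side of the threshold, 67 lost the call and 7 gained it; between cell types these numbers were 230, 3 and 0, with 1 reversal. Young and old groups held 2 mouse labels each, 1 old label naming 2 animals, which limits what their comparison can show.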
